A study of Mus musculus with 6 samples.

Results

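Toll-like receptors are membrane proteins that recognise molecules of microbes, and the genes described here are Tlr1, Tlr2, Tlr3, Tlr4, Tlr6, Tlr7, Tlr8 and Tlr9 with Cd14, which hands lipopolysaccharide to Tlr4, and Myd88, the adaptor below every Toll-like receptor of the mouse but Tlr3. They were chosen by gene name: every non-control probe of the array that carried 1 of these 10 names was taken, which gave 14 probes of 55681 and 10 gene names of 34650. The arrays compared bone marrow cells of mice labelled as Spred1 KO (3 samples) with cells of wild type mice (WT, 3 samples), and the strain was C57BL/6 throughout. The product of Spred1 holds back signalling through Ras and ERK. In both genotypes the cells had been sorted as CD48-negative, c-Kit-positive, Sca-1-positive and negative for lineage markers, a gate that holds haematopoietic stem cells and early progenitors, and each sample was hybridised to 1 single-colour Agilent array. The labels give neither the animals' age nor which part of Spred1 was deleted, nor whether the 3 samples of a genotype came from separate animals, so the p-values below measure only the spread between these samples.

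Toll-like receptors at the cell surface read lipids and proteins: Tlr2 pairs with Tlr1 for triacylated and with Tlr6 for diacylated lipopeptides, and Tlr4, with its partner Ly96, reads lipopolysaccharide. Tlr3, Tlr7, Tlr8 and Tlr9 sit in endosomes and read nucleic acids (double-stranded RNA for Tlr3, single-stranded RNA for Tlr7, CpG DNA for Tlr9). Mouse stem and progenitor cells of the marrow are known to carry several of these receptors and to respond to their ligands directly, by cycling and by turning towards myeloid fates.

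The probes are 60-base oligonucleotides, and what each can detect is set by where it lies. The last 30 bases of the probes that the results turn on are given here 5′ to 3′, as the scanner files list them. Tlr4, Tlr7 and Tlr8 each have several probes, which gave different signals for Tlr4 and Tlr7. Capitals mark the hexamer AATAAA, the usual polyadenylation signal.
Tlr2: gggtaaatctgagaactgcAATAAAgtcct
Tlr6: atgtgaaaacttgaaacttgggtttctaac
Tlr4 (a): taacatccttttccttcatcattctcattt
Tlr4 (b): acgaggcacgatattaatgctgtggattga
Myd88: tctaccatagaggcaatgtcatggtccctc
Tlr9: tctgtcttactacaccgctatttggcaagt
Tlr7 (a): gttcaatgaAATAAAagcccagagaacttc
Tlr7 (b): gttgtcatggctcagattggtgggaaatca
Tlr7 (c): gtttggggcagcaagagacatggctcagtg
Tlr8 (a): aaacacacagcttctccttacaatgaactg
Tlr8 (b): tatactatacctgctgggttgcctgagtct
AATAAA was present on the listed strand in 3 of the 14 probes (Tlr2, Tlr3 and Tlr7 (a)) and in 10.1% of all 60-base probes, and its reverse complement TTTATT in 0 of the 14 and in 3.74% of all.

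In the mm9 build, which the scanner files use, Tlr7 (a) lies at chrX:163742863-163742922 on the minus strand. Tlr7 (b), at chrX:163743146-163743205, starts 283 bases from it, and Tlr7 (c), at chrX:163747214-163747273, a further 4068 bases away. The Tlr4 probes lie on the plus strand at chr4:66503470-66503529 for (a) and chr4:66590077-66590136 for (b), 86607 bases apart. The Tlr8 probes lie at chrX:163680628-163680685 for (a) and chrX:163683356-163683415 for (b), both on the minus strand. The other probes lie at chr3:83640344-83640403 (Tlr2, minus), chr5:65344365-65344424 (Tlr6, minus), chr5:65316115-65316174 (Tlr1, minus), chr8:46481729-46481788 (Tlr3, minus), chr9:106128979-106129038 (Tlr9, plus), chr9:119245322-119245381 (Myd88, minus) and chr18:36884969-36885028 (Cd14, minus). Whether a probe falls in an exon, an intron or a UTR is not stated here, since no mm9 gene annotation was used.

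The sorted cells gave signal for 7 of the 10 genes. Tlr2, Tlr4, Tlr6, Tlr7, Tlr9, Cd14 and Myd88 were well above background on all 6 arrays, by the scanner software's flag gIsWellAboveBG, through 8 probes. Tlr3 and Tlr8 were not well above background on any array, and Tlr1 was so on 0 of 3 KO arrays and 1 of 3 WT arrays. Between the genotypes, 0 of the 8 measured probes passed the test at adjusted p under 0.05 (limma, Benjamini-Hochberg over all 27806 probes tested), beside 0.0324% of all probes called (0.0216% higher and 0.0108% lower in KO). At an unadjusted p under 0.05 the count was also 0 of 8, beside 11.4% of all probes (6.72% higher and 4.73% lower); it was 1 of 8, the probe called Tlr7 (b) here, in 4 of the 16 alternative settings. All values below are log2 intensities with the arrays scaled to a common 75th percentile, on which 1 unit is a doubling of signal. They compare arrays for 1 probe, since the level of 1 probe cannot be set against that of another.

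**Figure D1:**
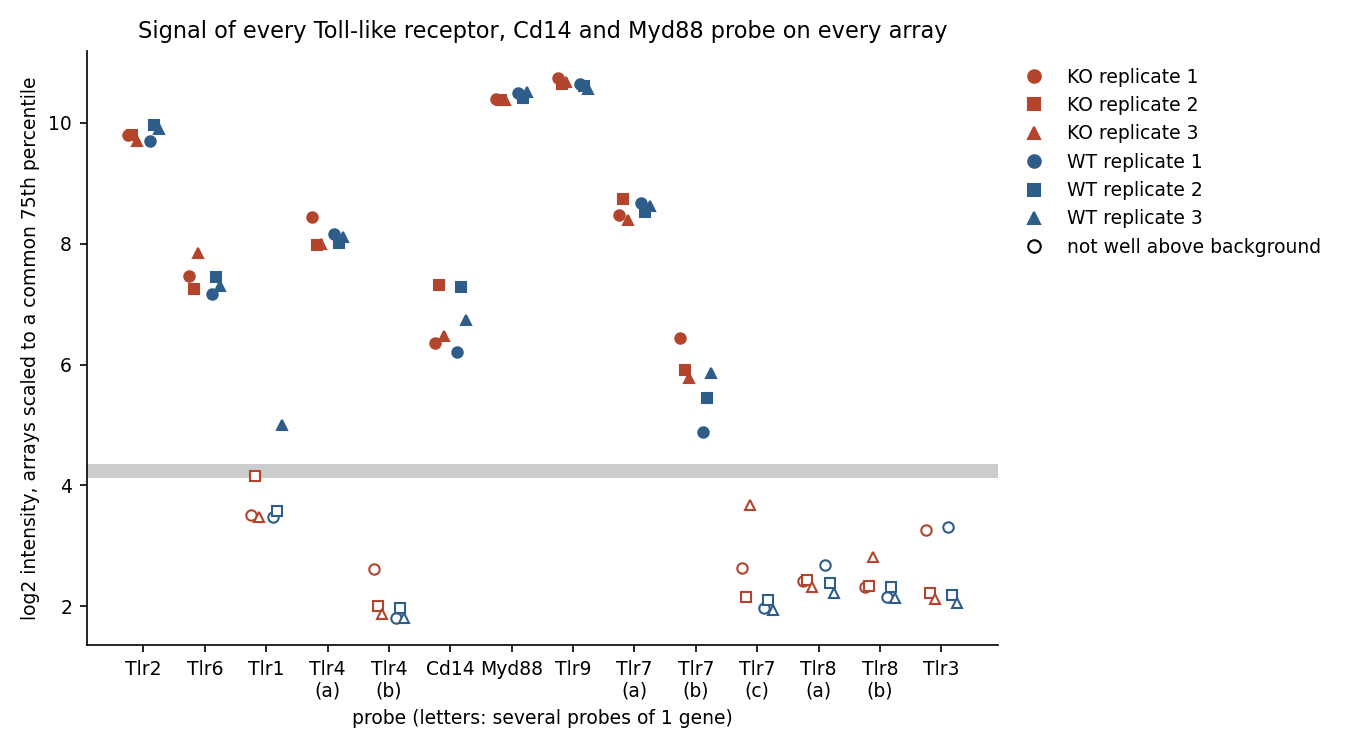
Log2 intensity (vertical axis) of each of the 14 probes (horizontal axis) on the 3 KO arrays (red) and the 3 WT arrays (blue), the marker shape giving the replicate number and open markers standing for arrays on which the probe was not well above background. The grey band is the range over arrays of the dimmest probe flagged as well above background, 4.14 to 4.34. Tlr3, Tlr8, Tlr4 (b) and Tlr7 (c) lie below it on every array, while the KO and WT markers of the measured probes lie side by side, spread most widely for Cd14 and Tlr7 (b).

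As to the arrays themselves, 52.3% to 53.4% of spots were well above background and 0 spots were saturated, and log2 values correlated between arrays at Pearson's r of 0.9871 to 0.9941. Both genotypes were on both slides: replicates 1 and 2 on slide 1, replicate 3 on slide 2, which was scanned apart. All KO arrays sat in array column 4 of a slide and all WT arrays in column 2, so position and genotype cannot be told apart. The 3 Spred1 probes changed differently in KO arrays: by -0.14 ± 0.10, by -0.98 ± 0.095 (adjusted p = 0.0543, limma) and by 2.44 ± 0.16 (adjusted p = 0.0133, limma; log2, ± SE); the labels do not place the deletion relative to these probes, so the labels are not checked by them. Kit and Ly6a (Sca-1), on which the cells were sorted, were well above background on all 6 arrays, as were Procr and Cd34, and so was Cd48, whose protein the gate excludes, at 8.29 to 8.76 in KO arrays and 7.89 to 8.65 in WT arrays.

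WT replicate 1 stood apart from the other WT arrays in some lists of mature cell markers and not in others. Over the 14 neutrophil markers, all of them measured, the median gene was lower there than the mean of the other WT arrays by 2.41 (log2 -2.41); the medians were -0.68 for 11 monocyte and macrophage markers, -1.37 for 6 erythroid markers and -0.82 for 3 B cell markers. They were -0.18 for 5 dendritic cell markers, -0.058 for 4 T and NK cell markers and -0.055 for 6 megakaryocyte markers. The summed intensity of the neutrophil list was 130000 to 170000 on KO arrays and 39600 to 204000 on WT arrays. That of the monocyte and macrophage list, most of it from Itgam, was 18000 to 20100 on KO arrays and 16000 to 17200 on WT arrays. Itgam itself was not lower in WT replicate 1 than the mean of the other WT arrays (log2 0.047). Of the B cell markers, 3 of 8 (Pax5, Ebf1 and Igll1) were not well above background on any array, while Cd79a, Cd79b and Vpreb1 were so on all 6. Of the dendritic cell markers, Xcr1 and Clec9a were above it on none of the arrays, while Siglech and Bst2 were on all 6. Siglech, a marker of plasmacytoid dendritic cells, which carry Tlr7 and Tlr9, gave 16.13, 15.94 and 16.14 on KO arrays and 15.67, 15.81 and 15.87 on WT arrays, so that all KO arrays lay above the WT arrays; the difference was 0.29 ± 0.10 (SE; adjusted p = 0.404, limma). Of all gene names, 9.52% had all KO arrays above the WT arrays. Of the 5 dendritic cell markers measured, 2 were higher and 3 lower in KO, with a median difference of -0.078. The lower ones were Bst2 (-0.078), Ccr9 and Zbtb46. Ccr9 and Zbtb46 were each well above background on 1 of 3 KO arrays and 3 of 3 WT arrays. They were tested only through their WT arrays, so no fold is given for them. The count of lower markers and the median rest partly on these genes. The summed intensity of the dendritic cell list, most of it from Siglech, was 67800 to 78300 on KO arrays and 57200 to 66800 on WT arrays. Neutrophils, monocytes and B cells carry Toll-like receptors too. In KO, 12 neutrophil markers were higher and 2 lower (median 0.37). For monocyte and macrophage markers the counts were 10 and 1 (median 0.21), and for B cell markers 2 and 1 (median 0.026). Among all gene names 48.8% were higher. Ccr2 and Cx3cr1, higher in KO, were well above background on 3 KO arrays but 2 WT arrays each. WT replicate 1, low in these lists, enters these differences. The members' differences and the list medians below are therefore also given without WT replicate 1 where that moves them by over 1.5 times. For single genes of the lists this was not done, and the part of other cells in the results was not tested. In RNA of a sorted population, fewer cells of a type and less RNA per cell cannot be told apart.

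Tlr2, the shared chain of the lipopeptide receptors, did not differ between the genotypes beyond the spread of the arrays. Its probe gave 9.80, 9.80 and 9.71 on the KO arrays and 9.70, 9.97 and 9.89 on the WT arrays. The ranges overlapped, the lowest value of all being WT replicate 1. The difference, KO minus WT, was -0.085 ± 0.10 (SE; adjusted p = 0.742, limma), with a 95% interval of -0.33 to 0.16, or 79.7% to 112% of the WT level. This probe was printed 10 times on each array, and the SD between these single spots was 0.040 to 0.061. Between arrays, each the mean of its spots, the SD was 0.054 among KO samples and 0.14 among WT samples. Without WT replicate 1 the difference was -0.16 ± 0.098 (SE; adjusted p = 0.721, limma).

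Tlr6, which pairs with Tlr2 for diacylated lipopeptides, was highest in KO replicate 3. The values were 7.47, 7.25 and 7.85 on KO arrays and 7.17, 7.44 and 7.29 on WT arrays, so the lowest KO value lay within the WT range. The difference was 0.22 ± 0.17 (SE; adjusted p = 0.603, limma; 95% interval -0.18 to 0.62), and the exact two-sided permutation test over the 6 arrays gave p = 0.4, where 0.1 is the smallest p that 3 samples against 3 allow. Tlr1, the partner for triacylated lipopeptides, gave 3.51, 4.15 and 3.48 on KO arrays and 3.48, 3.58 and 5.0 on WT arrays. Only the 5.0 of WT replicate 3 was well above background, so no fold is given.

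Tlr4, the lipopolysaccharide receptor, was measured by probe (a) alone. It gave 8.44, 7.97 and 8.0 on KO arrays and 8.17, 8.01 and 8.11 on WT arrays, with the highest and the lowest value both among the KO arrays. The difference was 0.041 ± 0.14 (SE; adjusted p = 0.919, limma; 95% interval -0.30 to 0.38). Its sign was negative without KO replicate 1, the highest array, at -0.11, and without WT replicate 1 the difference was 0.077 ± 0.17 (SE; adjusted p = 0.911, limma). Tlr4 (b), annotated to another transcript, lay between 1.88 and 2.62 on KO arrays and between 1.80 and 1.97 on WT arrays, not well above background on any.

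Cd14, the co-receptor that brings lipopolysaccharide to Tlr4, had nearly the same mean in both genotypes and the widest scatter of the measured probes among KO arrays. It gave 6.36, 7.31 and 6.47 on KO arrays and 6.21, 7.28 and 6.73 on WT arrays. Replicate 2 was the highest array in each genotype, and the difference between arrays of 1 genotype reached about 1 unit. The genotypes differed by -0.030 ± 0.34 (SE; adjusted p = 0.976, limma). The 95% interval, -0.84 to 0.78, allows 55.8% to 172% of the WT level, so a difference of 1.5-fold either way was not excluded. With the replicate number as a block, the SE was 0.12 in place of 0.34, at the same difference (adjusted p = 0.927, limma). In WT replicate 1 Cd14 was lower than the mean of the other WT arrays (log2 -0.79), as was the median of the neutrophil, monocyte, erythroid and B cell lists; without that array the difference was -0.30 ± 0.33 (SE; adjusted p = 0.820, limma). Among KO arrays Cd14 was highest on replicate 2. There the list median relative to WT was lowest for neutrophil and erythroid, highest for monocyte and in between for B cell markers. Whether Cd14 follows these lists was not tested.

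Tlr9, the receptor for CpG DNA in endosomes, was the only measured member whose KO arrays all lay above the WT arrays. It gave 10.75, 10.65 and 10.68 on KO arrays and 10.64, 10.61 and 10.57 on WT arrays. The gap between the lowest KO and the highest WT array was smaller than the spread within either genotype, and the difference was 0.087 ± 0.082 (SE; adjusted p = 0.680, limma; 95% interval -0.11 to 0.28). Of all probes, 9.23% had KO arrays that all lay above the WT arrays.

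Tlr7, the receptor for single-stranded RNA, was read by 3 probes that did not show the same thing. Tlr7 (a) gave 8.47, 8.74 and 8.40 on KO arrays and 8.68, 8.52 and 8.62 on WT arrays, a difference of -0.068 ± 0.12 (SE; adjusted p = 0.817, limma; 95% interval -0.35 to 0.21), and of -0.033 without WT replicate 1. Tlr7 (b) gave 6.43, 5.92 and 5.77 on KO arrays and 4.88, 5.45 and 5.86 on WT arrays. The ranges overlapped through WT replicate 3, which was higher than KO replicate 3. The difference of Tlr7 (b), 0.64 ± 0.28, was the largest among the measured probes and did not pass (unadjusted p = 0.0557, adjusted p = 0.445, limma); its 95% interval, -0.021 to 1.30, spans 98.6% to 247% of the WT level.

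The difference of Tlr7 (b) depended on which array was left out and was not seen on slide 2. With 1 array left out it ran from 0.38, without WT replicate 1, to 0.87, without WT replicate 3. WT replicate 1, its lowest array, was below the mean of the other WT arrays (log2 -0.77), and without it the difference was 0.38 ± 0.24 (SE; adjusted p = 0.721, limma). Within slide 1 it was 1.01 ± 0.28 (SE; adjusted p = 0.811, limma), and on slide 2, with 1 array a genotype, -0.089. The genotype differences of probes (b) and (a) differed by 0.71, with p = 0.2 in an exact two-sided permutation test over the 6 arrays. Tlr7 (c), annotated to another transcript variant, stayed below the well-above-background flag on every array, at 2.62, 2.15 and 3.68 on KO arrays and 1.96, 2.10 and 1.94 on WT arrays.

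The other nucleic acid receptors were not measurable. Tlr8, the neighbour of Tlr7 on chromosome X, lay between 2.31 and 2.81 on KO arrays and between 2.14 and 2.68 on WT arrays through its 2 probes. Tlr3, the receptor for double-stranded RNA and the one that signals without Myd88, gave 3.26, 2.22 and 2.12 on KO arrays and 3.31, 2.18 and 2.05 on WT arrays. None of these values was well above background, so no fold is given, and a low level of either transcript is not shown to be absent.

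Myd88 had the smallest SE of the 8 measured probes, and its KO arrays all lay below its WT arrays. They gave 10.395, 10.385 and 10.381 in KO, against 10.492, 10.405 and 10.513 in WT. The difference was small, -0.083 ± 0.082 (SE; adjusted p = 0.688, limma; 95% interval -0.28 to 0.11, or 82.5% to 108% of the WT level). The mean was 10.39 ± 0.0072 for KO arrays and 10.47 ± 0.057 for WT arrays (SD, n = 3 each). Of all probes, 9.45% had KO arrays that all lay below the WT arrays. The probe was printed 10 times on each array, with 1 spot left out as an outlier on KO replicate 2. The spots of 1 array spread by an SD of 0.050 to 0.083. That is the spread of single spots, and the mean of an array's spots, used in the comparison, varies less.

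**Figure D2:**
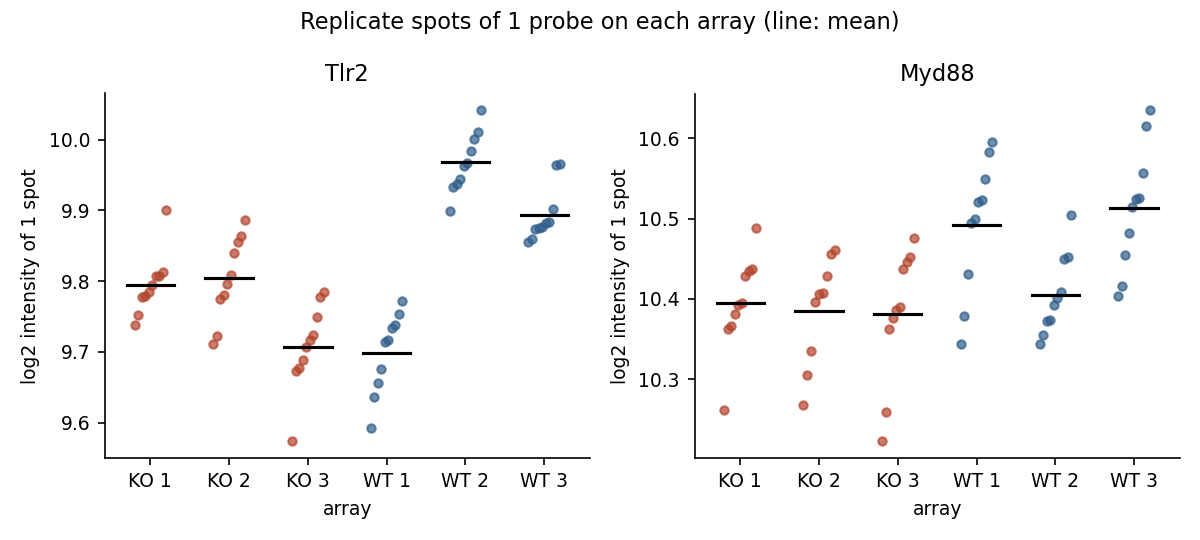
Log2 intensity (vertical axes) of the replicate spots of the Tlr2 probe (left) and the Myd88 probe (right) on each array (horizontal axes), KO arrays in red and WT arrays in blue, with a line at the mean of each array. For Myd88 the spots of the KO and WT arrays overlap although the array means do not; for Tlr2 the means of WT replicates 2 and 3 are above, and that of WT replicate 1 below, the KO means.

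**Figure D3:**
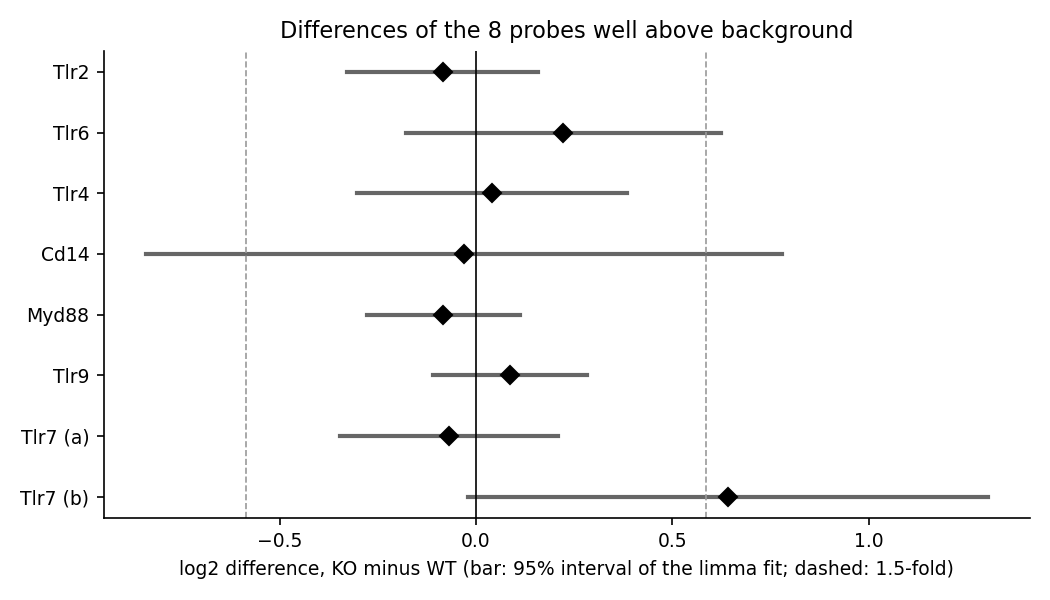
Log2 difference, KO minus WT (horizontal axis), of the 8 probes well above background, with the 95% interval of the limma fit as a bar and dashed lines at a 1.5-fold change either way. Every interval includes 0; those of Tlr2, Tlr4, Myd88, Tlr9 and Tlr7 (a) lie inside 1.5-fold, and those of Tlr6, Cd14 and Tlr7 (b) reach past it.

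How far the arrays bound a change differed between the genes. The 95% interval lay inside 1.5-fold either way for 5 of the 8 probes (Tlr2, Tlr4, Myd88, Tlr9 and Tlr7 (a)), beside 68.9% of all probes tested, and inside 2-fold for 7 of the 8. Tlr9 and Myd88 made 2 of 8 probes without overlap between the genotypes, beside 18.7% of all probes. With 1 probe a gene, 3 of the 7 measured genes were higher and 4 lower in KO, none past the test, with a median difference of -0.030; over all 19621 gene names tested, 48.8% were higher, 51.2% lower and the median was -0.0062. The summed intensity of the 7 measured genes, most of it from the Tlr9, Myd88 and Tlr2 probes, was 4720 to 4920 on KO arrays and 4780 to 4870 on WT arrays. With the slide as a block, the adjusted p-values of the 8 probes ran from 0.488 for Tlr7 (b) to 0.977 for Cd14 (limma).

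The genes whose 6 array values were most like those of a member gave no common set. Likeness was Pearson's r over the 6 arrays among 26308 probes well above background on all of them; with so many probes and 6 arrays, r near 1 can arise for any pattern, and the arrays share their scaling and slides. The nearest named genes were Twf1 for Cd14 (r = 0.9941), Mrps17 for Myd88 (r = 0.9974), Gorasp1 for Tlr2 (r = 0.9931) and Mlh3 for Tlr4 (r = 0.9949). For the others they were Gm10866 for Tlr6 (r = 0.9942), Ythdc2 for Tlr7 (a) (r = 0.9963), Prdm2 for Tlr7 (b) (r = 0.9997) and Gm10765 for Tlr9 (r = 0.9952).

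The other genes of the pathway were described by role, with 1 probe a gene, and 0 of the 63 measured passed the test in either direction, beside 0.0255% of all gene names called. Among the partners of the receptors, 10 of 14 genes were measured, with 4 higher and 6 lower in KO and a median difference of -0.036. Tlr12 and Tlr13, mouse receptors for profilin and for bacterial ribosomal RNA, were well above background on all 6 arrays, and Tlr5, the flagellin receptor, Tlr11 and Cd180 on none; these were named after their values were seen. The smallest p belonged to Slc15a4, an endosomal transporter needed for Tlr7 and Tlr9 signalling in mice. It gave a difference of -0.31 ± 0.11 (SE; adjusted p = 0.40, limma), its KO arrays all below its WT arrays. That held for 2 of the 10 partners measured, and 0 had all KO arrays above, beside 10% and 9.52% of all gene names. Hsp90b1 (gp96), the chaperone that folds most Toll-like receptors, differed by -0.37 ± 0.16 (SE; adjusted p = 0.444, limma) and Nrros, a partner that restrains Toll-like receptors, by -0.18 ± 0.087 (SE; adjusted p = 0.469, limma). Ly86, which joins Cd180, was chosen after its values were seen: it was at 7.58, 7.93 and 7.37 on KO arrays and 5.16, 7.68 and 7.90 on WT arrays, a difference that lay in WT replicate 1. Without that array, 1 of the 10 partners was higher and 9 were lower, with a median of -0.090, and 0 passed (limma; 0 also at an unadjusted p under 0.05). The share of all gene names lower in that fit is not given, so this count has no background beside it.

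Of the adaptors, kinases and ubiquitin ligases, 18 of 20 were measured, 8 higher and 10 lower in KO, with a median of -0.053. Ikbkg (NEMO), the regulatory subunit of the kinase that frees NF-kB, gave 7.13, 7.08 and 7.0 on KO arrays and 7.50, 7.38 and 7.33 on WT arrays. All its KO arrays were below its WT arrays, with a difference of -0.33 ± 0.092 (SE; adjusted p = 0.393, limma). Traf6, the ubiquitin ligase that Myd88 signals through, gave 9.09, 9.23 and 9.34 on KO arrays and 8.80, 8.92 and 8.94 on WT arrays. Here all KO arrays were above the WT arrays, with a difference of 0.34 ± 0.10 (SE; adjusted p = 0.393, limma). Ticam1 (TRIF), the adaptor of Tlr3 and second adaptor of Tlr4, differed by -0.27 ± 0.11 (SE; adjusted p = 0.434, limma). These 3 were the only genes of the group at an unadjusted p under 0.05, 1 higher and 2 lower of 18, beside 11.3% of all gene names (6.7% higher and 4.64% lower). All KO arrays lay above the WT arrays for 2 of the 18 and below for 5, beside 9.52% and 10% of all gene names.

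Of the NF-kB and IRF factors, 8 of 9 were measured, 4 higher and 4 lower in KO. Their median was 0.015 (4.82e-05 without WT replicate 1), and none was at an unadjusted p under 0.05. The smallest p-values were those of Irf1 (0.18 ± 0.10, adjusted p = 0.513), Relb (0.16 ± 0.12, adjusted p = 0.609) and Irf5 (0.10 ± 0.12, adjusted p = 0.751; limma, ± SE). All 12 inhibitors of the pathway were measured, 5 higher and 7 lower, with a median of -0.038. Irak3, a kinase-like protein that holds back Irak signalling, differed by -0.23 ± 0.10 (adjusted p = 0.446), Socs1 by -0.27 ± 0.12 (adjusted p = 0.467) and Nfkbib, an inhibitor that binds NF-kB in the cytoplasm, by -0.17 ± 0.092 (adjusted p = 0.50; limma, ± SE). For each of these 3 inhibitors all KO arrays were below the WT arrays, and no inhibitor had all KO arrays above. Of all gene names, 10% had all KO arrays below and 9.52% all above the WT arrays. The inhibitors' median was -0.091 without WT replicate 3, -0.109 within slide 1 and 0.0013 without WT replicate 2, and Irak3, Socs1 and Nfkbib were picked from the 12 by their p.

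**Figure D4:**
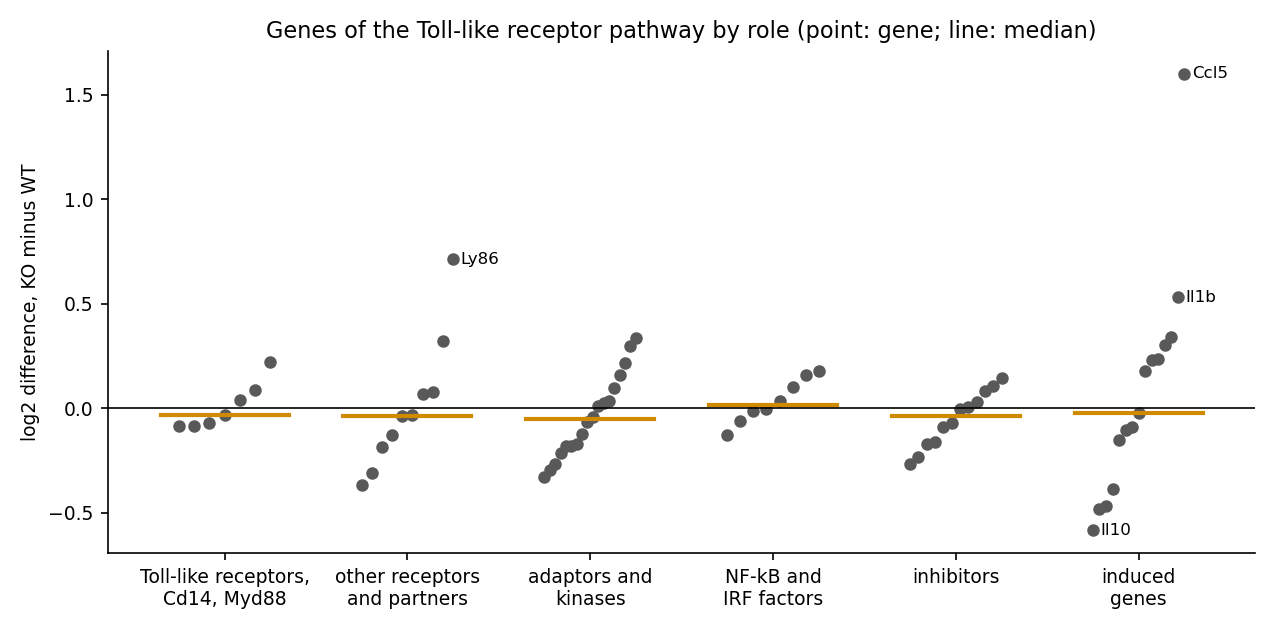
Log2 difference, KO minus WT (vertical axis), of each measured gene of the pathway (points, 1 probe a gene) by role (horizontal axis), with the median of each group as a line. The 6 medians lie between -0.053 and 0.015, and the widest spread is among the induced genes, with Ccl5 at 1.60.

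Genes that Toll-like receptor ligands are known to induce in macrophages moved in no common direction: 15 of 22 were measured, 7 higher and 8 lower in KO, with a median of -0.024 that turned to 0.21 without KO replicate 1 and to 0.077 among probes well above background on all 6 arrays. Ccl5, a chemokine for T cells and monocytes, stood at 9.61, 9.14 and 9.41 on KO arrays and 7.51, 7.91 and 7.95 on WT arrays. Every KO array was more than 1 unit above every WT array. The difference, 1.60 ± 0.17, did not pass (adjusted p = 0.0756, limma), and it did pass with normexp background correction, at 1.36 ± 0.13 (adjusted p = 0.00832, limma). Nfkbiz, a nuclear cofactor of NF-kB, differed by -0.47 ± 0.12 (SE; adjusted p = 0.387, limma) with all KO arrays below the WT arrays. Nos2, the inducible nitric oxide synthase, differed by 0.23 ± 0.098 (SE; adjusted p = 0.442, limma). All KO arrays lay above the WT arrays for 2 of the 15 measured genes and below for 1, beside 9.52% and 10% of all gene names.

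**Figure D5:**
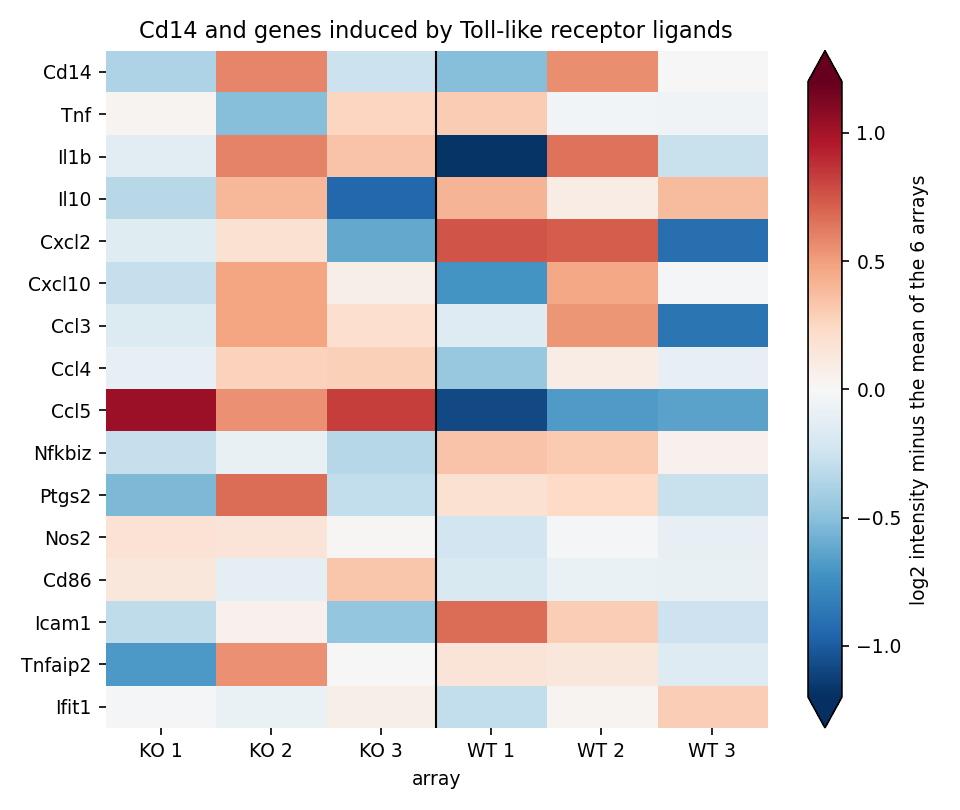
Log2 intensity minus the mean of the 6 arrays (colour, limits at 1.2 either way) of Cd14 and the 15 measured genes induced by Toll-like receptor ligands (rows) on the 3 KO arrays (left) and the 3 WT arrays (right of the line). Ccl5 is high on every KO array and low on every WT array, while Cd14 is highest on replicate 2 of each genotype.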

How the data were processed

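Single-colour (Cy3) Agilent arrays of 3 KO and 3 WT samples were read. Per the file headers, the authors' scanner files hold gProcessedSignal, an intensity on a linear scale that Agilent Feature Extraction 10.7.3.1 had corrected for background, the flags for spots above background and outliers, probe sequences and mm9 positions. The deposited value table holds these intensities after division by an array-wide constant (304 to 368), uncentred, with column medians of 0.0638 to 0.0750.

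The members and gene lists were chosen with earlier results of these data known. Control and outlier spots were left out, log2 intensity was set to each array's 75th percentile plus the mean of the 6 percentiles (8.558), and spots of 1 probe were averaged. Probes well above background on all 3 arrays of a genotype were tested with limma 3.58.1 (R 4.3.3; lmFit, eBayes), with Benjamini-Hochberg adjustment and a threshold of 0.05. The fit was also run on simulated data with independent normal noise and no slide or array effects, and its outcome is not given here. The number of arrays limits the precision. Gene lists used the brightest probe of a gene. Beyond the members, the text names from each list the 3 genes with the smallest p, with exceptions stated. RefSeq (GRCm38.p6) held the accessions of 12 of the 14 member probes, all under the same symbol. The labels number the samples 1 to 3 in both genotypes; same-numbered arrays' deviations correlated at -0.018, 0.14 and 0.084, so the numbers were not taken to pair them. Alternatives tried were the background correction, quantile normalization, the deposited table, the filter, 1 probe a gene, the slide, the replicate number and each array left out.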

Additional observations from a re-analysis of the deposited data

How the results depend on the processing

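None of the member probes was called under any of the 16 alternatives planned (limma), and the smallest adjusted p of a member was 0.323, for Tlr7 (b). At an unadjusted p under 0.05, Tlr7 (b) was counted with normexp, among probes well above background on all 6 arrays, within slide 1 and without WT replicate 3, and no other member in any. With no filter on dim probes, the 6 probes not well above background had adjusted p-values of 0.683 to 0.985. Signs turned for 4 probes. Cd14 was 0.023 with normexp, 0.089 within slide 1, 0.15 without KO replicate 1, 0.093 without KO replicate 3 and 0.24 without WT replicate 2; with 1 array left out it ran from -0.33 to 0.24. Tlr4 (a) was -0.11 without KO replicate 1, -0.0021 without WT replicate 2 and -0.11 on slide 2, an alternative added after seeing the data, with 1 array a genotype and no test. With 1 array left out Tlr4 (a) ran from -0.11 to 0.12. Tlr7 (a) was 0.0067 within slide 1 and 0.00051 without KO replicate 3 (-0.17 to 0.00051 with 1 array left out), and Tlr7 (b) -0.089 on slide 2. Myd88 stayed between -0.13 and -0.040, Tlr2 between -0.19 and -0.028, Tlr9 between 0.059 and 0.13 and Tlr6 between 0.053 and 0.56.

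The median difference of the induced genes was -0.036 to 0.21 over the settings, that of the inhibitors -0.11 to 0.0013, of the NF-kB and IRF factors -0.0077 to 0.10, of the receptor partners -0.090 to 0.0041 and of the adaptors and kinases -0.082 to -0.029.

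Over all probes, 6 were called higher and 3 lower in KO. The counts were 10 and 5 with normexp, where 1 pathway gene (Ccl5) was called, 3 and 0 among probes well above background on all 6 arrays, 3 higher with 1 probe a gene name, and 0 and 0 with no filter (2484 and 1374 at an unadjusted p under 0.05), within slide 1 (974 and 704) and with the replicate number as a block (1783 and 1132, limma). Leaving out 1 array gave 0 to 6 higher and 0 to 5 lower. The replicate block called none of the members, as did the fit without it. The fit within slide 1 used fewer arrays, and the fit without a filter tested more probes. The cause of the changes in these counts was not tested.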

Other observations

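Replicate 2 was the highest array in both genotypes for Cd14 and, among the 15 measured genes induced by Toll-like receptor ligands, for 4: Il1b, Cxcl10, Ccl3 and Ptgs2, or 26.7% of that list, beside 10.5% of 19616 gene names. It was not particular to them: the share was 33.3% of the 12 inhibitors, 50% of the 6 megakaryocyte markers and 20% of the 10 receptor partners measured. Smaller shares were found for adaptors and kinases (11.1%), NF-kB and IRF factors (12.5%) and neutrophil markers (7.14%). For dendritic, B cell and erythroid markers the share was 0%. The pattern was noticed after the values were seen and was not tested. Il1b gave 7.40, 8.13 and 7.88 on KO arrays and 6.36, 8.20 and 7.27 on WT arrays. Ccl3 gave 12.13, 12.77 and 12.50 on KO arrays and 12.14, 12.83 and 11.42 on WT arrays. Both arrays numbered 2 sat in array row 2 of slide 1 and the others in row 1, so number and row cannot be told apart.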
